A study of Homo sapiens with 6 samples.

Results

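The Hippo genes described here are AMOTL2, ANKRD1, CYR61, TEAD1, TEAD4 and YAP1, followed through 3 lists of β-catenin binding sites from human embryonic stem cells. Every peak that the authors assigned to one of these genes was taken, at any distance from the transcription start site (TSS). CYR61 is the older symbol of CCN1. This gave 14 peaks of the 3126 in the lists. They were 11 of the 1813 peaks in cells with CHIR99021 and SB431542 (CHIR+SB), 3 of the 1053 in cells with CHIR99021 alone (CHIR) and 0 of the 260 in cells with medium alone (RPMI). The cells were of the line SA121 and spent 6 h in RPMI-1640 medium with or without the inhibitors before chromatin immunoprecipitation and sequencing (ChIP-seq). CHIR99021 inhibits the kinase GSK3 and so stabilises β-catenin. SB431542 blocks the type I receptors of activin, Nodal and TGFβ. There was 1 β-catenin library per condition, made from 3 pooled parallel ChIPs, and 1 library with control goat IgG, whose reads stand beside each peak. No spread between replicates exists, so no test between conditions was made. The peak lists hold no RNA levels, and the cell type was not checked against marker genes.

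The Hippo pathway is a kinase cascade that restrains tissue growth. The kinases STK3 and STK4 activate LATS1 and LATS2, which phosphorylate the co-activator YAP1 and keep it out of the nucleus. Unphosphorylated YAP1 enters the nucleus and works through the TEAD transcription factors, which bind DNA, since YAP1 does not bind DNA itself. CYR61, ANKRD1 and AMOTL2 are among the genes most often read as YAP1 and TEAD targets. β-catenin likewise has no DNA-binding domain of its own and reaches chromatin mainly through TCF/LEF factors. YAP1 is also known to associate with the cytoplasmic complex that degrades β-catenin, and TEAD factors with SMAD2/3 at developmental genes of human embryonic stem cells.

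The lists held 39022 β-catenin reads within peaks in CHIR+SB, 39408 in CHIR and 6272 in RPMI. Normalized signal, the authors' unit, is the read count in a peak times 1 factor per library. By these factors, an equal β-catenin signal took 1.14 times as many reads in CHIR+SB and 1.67 times as many in CHIR as in RPMI. For IgG, an equal signal took 1.75 times as many reads in CHIR+SB and 0.976 times as many in CHIR. Raw IgG reads of different conditions are therefore not on one scale. The lowest peak had 12 reads in CHIR+SB, 20 in CHIR and 15 in RPMI, which are signals of 6.75, 7.68 and 9.61. All intervals below are exact 95% intervals that cover counting error only.

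All 6 genes had a peak in CHIR+SB, 3 of them in CHIR (AMOTL2, ANKRD1 and TEAD1) and none in RPMI. For comparison, 6.25% of the 20056 protein-coding genes had an assigned peak at any distance in CHIR+SB, 3.80% in CHIR and 1.14% in RPMI. The genes were picked with these lists known, so their count in CHIR+SB says nothing beyond the choice. The signals ran from 7.88 to 14.6 in CHIR+SB and from 13.4 to 21.1 in CHIR. At the 3 sites in both lists, the CHIR+SB signal was the lower one at TEAD1 and AMOTL2 and the higher one at ANKRD1. The order of the counts depended on how far down the lists were read. Among the 260 highest peaks of each list, CHIR+SB held 0 of these peaks and CHIR held 2, at TEAD1 and AMOTL2. Cut to its 1053 highest peaks, as many as CHIR had, with ties kept, CHIR+SB held 9 of these peaks at 5 genes. Both of these cuts were chosen after seeing the data. At or above a signal of 9.61, the highest of the 3 lists' minimums, CHIR+SB held 7 peaks at 4 genes and CHIR held 3 peaks at 3 genes.

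**Figure D1:**
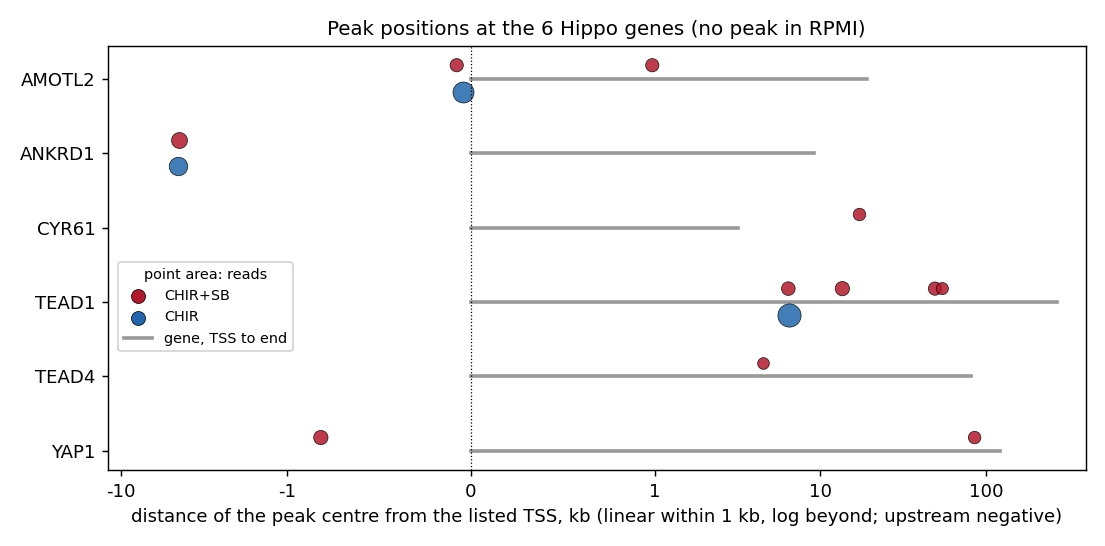
Position of each peak relative to the TSS of its gene, in kb on an axis that is linear within 1 kb and logarithmic beyond, with CHIR+SB in red above CHIR in blue and point area in proportion to the reads (14 to 55). The 3 CHIR peaks each lie beside a CHIR+SB peak, at AMOTL2, ANKRD1 and TEAD1, while the peaks of CYR61, TEAD4 and YAP1 are in CHIR+SB alone.

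AMOTL2 encodes a junctional scaffold protein that binds YAP1 and is itself a YAP1 target. It was the one gene of the 6 with a peak over its listed TSS, and it had one there in both CHIR+SB and CHIR. Of its 2 RefSeq promoter windows, which run from 250 bases before a start to 50 after it, the one whose start lay nearest the listed TSS is shown because it holds letters of both a TCF/LEF and a TEAD motif. It lies on chromosome 3 at chr3:134374398-134374697, minus strand, in GRCh38.p14, whereas the peaks are in hg19. From 5′ to 3′, with the motif letters in capitals, it reads as follows.
AMOTL2 promoter: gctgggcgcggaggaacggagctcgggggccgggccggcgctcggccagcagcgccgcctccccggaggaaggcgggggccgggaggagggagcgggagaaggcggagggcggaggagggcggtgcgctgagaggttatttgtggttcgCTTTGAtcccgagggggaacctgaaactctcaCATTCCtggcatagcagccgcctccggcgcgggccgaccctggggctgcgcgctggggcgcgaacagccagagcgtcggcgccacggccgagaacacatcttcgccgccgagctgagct
The first capitals are the TCF/LEF letters CTTTGA, at bases 150 to 155 counted from 1 at the 5′ end, starting 101 bases before the RefSeq start. The second are CATTCC, the reverse complement of the TEAD letters GGAATG, at bases 182 to 187, starting 69 bases before it. The matches do not overlap.

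Of 35116 RefSeq windows of the same length, 12.9% held CTTTGA on either strand, 14.0% held GGAATG on either strand and 2.08% held both. A match of 6 letters is a description of the sequence, not a binding site. The window at the other AMOTL2 start held neither motif. The ANKRD1 window held GGAATG at 2 places and the YAP1 window at 1, and neither held CTTTGA. The ANKRD1 peaks lay beyond that window, ending 4250 bp (CHIR+SB) and 4340 bp (CHIR) short of the listed TSS. The YAP1 peaks were not placed against the YAP1 window. Windows of CYR61, TEAD1 and TEAD4 are not described here. The AMOTL2 RefSeq start shown lies 19102 bases from the end of the gene in GRCh38.p14, and the listed TSS 19217 bases from the listed end in hg19. If the ends match, the RefSeq start lay 115 bases downstream of the listed TSS. The TCF/LEF letters would then lie within both TSS peaks. The TEAD letters would lie within the CHIR peak but past the downstream edge of the CHIR+SB peak. The builds were not aligned to each other, so the overlap of window and peak was not measured base by base.

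At the AMOTL2 TSS, the CHIR+SB peak (chr3:134093379-134093585) had 18 β-catenin reads and 9 IgG reads, and the CHIR peak (chr3:134093197-134093703) had 45 and 7. Their normalized β-catenin signals were 10.1 in CHIR+SB (6.001 to 16.0) and 17.3 in CHIR (12.6 to 23.1). The normalized IgG signals were 3.54 in CHIR+SB and 4.94 in CHIR. The CHIR+SB peak reached from 179 bp upstream to 27 bp downstream of the listed TSS, and the CHIR peak from 297 bp upstream to 209 bp downstream. The CHIR+SB peak thus lay wholly inside the CHIR peak. The ratio of signals, CHIR+SB over CHIR, was 0.586, and its interval of 0.319 to 1.03 included 1. Per kb of peak, the signal was 49.2 in CHIR+SB and 34.2 in CHIR, so the ratio of densities was 1.44, on the other side of 1. Density rests on the widths called, so it does not show more binding in CHIR+SB.

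A second AMOTL2 peak was listed in CHIR+SB alone, 0.987 kb from the TSS within the gene (chr3:134092297-134092541). It also had 18 reads, with 6 IgG reads, and lay 838 bp from its neighbour. The nearest edge of the CHIR peak was 656 bp away. The summed signal of the 2 CHIR+SB peaks was 20.3, and that of the single CHIR peak was 17.3. CHIR reads at the position of the second CHIR+SB peak are not part of the lists, so the signals there were not compared.

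ANKRD1 encodes an ankyrin-repeat protein found in muscle sarcomeres and in the nucleus. Its peak lay 4.46 kb upstream of the TSS in CHIR+SB (chr10:92685282-92685703) and 4.54 kb upstream in CHIR (chr10:92685372-92685765), and the peaks shared 331 bp. There were 26 β-catenin and 14 IgG reads in CHIR+SB, and 35 β-catenin and 7 IgG reads in CHIR. The normalized IgG signal was 5.51 in CHIR+SB and 4.94 in CHIR. The normalized β-catenin signal was 14.6 in CHIR+SB (9.55 to 21.4) and 13.4 in CHIR (9.36 to 18.7). The ratio was 1.09, with an interval of 0.629 to 1.86, at peak widths of 421 bp in CHIR+SB and 393 bp in CHIR. At this site the signals of the libraries were close, and the interval leaves room for a difference of up to 1.86 times. ANKRD1 ranked 359th by signal in CHIR+SB, the highest place of any of the 6 genes there, and 409th in CHIR.

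CYR61 encodes a secreted protein of the extracellular matrix and is one of the standard readouts of YAP1 activity. Its single peak was in CHIR+SB, downstream of the gene and 17.1 kb from the TSS (chr1:86063443-86063692). It had 16 β-catenin reads and 7 IgG reads, a signal of 9.001 (5.14 to 14.6), which lies below the list's median of 9.56. No peak in CHIR or RPMI was assigned to CYR61. Within 100 kb of its TSS, CHIR had a peak of 26 reads at 50.4 kb and RPMI one of 20 reads at 94.2 kb, which the authors assigned to the neighbouring gene DDAH1. These were the only peaks assigned to another gene within 100 kb of the TSS of any of the 6 genes.

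TEAD1, a DNA-binding partner of YAP1, carried the highest peak of the 6 genes and the largest number of peaks. The highest was in CHIR, 6.51 kb from the TSS within the gene (chr11:12702188-12702777), with 55 β-catenin and 8 IgG reads. The CHIR+SB peak there (chr11:12702265-12702502) had 19 β-catenin and 10 IgG reads and lay wholly inside it. The normalized IgG signal was 3.94 in CHIR+SB and 5.65 in CHIR. The normalized β-catenin signal was 10.7 in CHIR+SB (6.44 to 16.7) and 21.1 in CHIR (15.9 to 27.5), so these intervals overlapped slightly. The ratio of signals was 0.506, and its interval of 0.284 to 0.866 excluded 1. Such a ratio below 1, with an interval that excluded 1, was found at 4.21% of the 642 peaks that overlapped one-to-one between CHIR+SB and CHIR. The CHIR+SB peak was 237 bp wide and the CHIR peak 589 bp. Per kb of its own width, the signal was 45.1 in CHIR+SB and 35.9 in CHIR, a ratio of 1.26. This density rests on the widths called, so it does not show more binding in CHIR+SB. The lower total in CHIR+SB was therefore counted over a narrower stretch, and the lists do not give the reads of both libraries over one common stretch.

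A further 3 TEAD1 peaks were in CHIR+SB alone, each within the gene. Their centres were 13.6 kb into the gene (chr11:12709384-12709755), 49.3 kb (chr11:12745081-12745474) and 54.6 kb (chr11:12750456-12750699). They had 21, 18 and 15 β-catenin reads, with 8, 3 and 5 IgG reads. The peak at 49.3 kb had the highest signal over IgG of all 14 peaks, 8.57, though with 3 IgG reads its interval ran from 2.50 to 45.4. From the first to the last, the 4 CHIR+SB peaks spanned 48.4 kb of a gene that is 270.3 kb long. The nearest CHIR peak to these 3 was the TEAD1 peak itself, 6.61, 42.3 and 47.7 kb away. TEAD1 is the longest of the 6 genes in the lists, ahead of YAP1 with 121.0 kb and TEAD4 with 81.1 kb.

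TEAD4, another TEAD factor, is known for its part in forming the trophectoderm of the mouse embryo. It had 1 peak, in CHIR+SB, 4.49 kb from the TSS within the gene (chr12:3073173-3073293). The peak had 14 β-catenin and 4 IgG reads over 120 bp, a signal of 7.88 (4.31 to 13.2). It shared this count of 14 with 433 peaks of the CHIR+SB list, itself included, and only 6 peaks had fewer. TEAD4 was thus called at the lower edge of the list. The nearest CHIR peak lay 980.5 kb away.

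YAP1, the co-activator itself, had 2 peaks, both in CHIR+SB. The first lay 0.815 kb upstream of the listed TSS (chr11:101982213-101982498) and had 21 β-catenin and 10 IgG reads, a signal of 11.8 (7.31 to 18.1). The RefSeq start of YAP1 lay 122977 bases from the gene's end in GRCh38.p14, and the listed TSS 120984 bases from the listed end in hg19. If the ends match, this peak lay downstream of the RefSeq start, within the gene. The builds were not aligned, so this was not measured. The second was inside the gene, 85.6 kb past the listed TSS (chr11:102068646-102068852) and had 16 and 6 reads, a signal of 9.001 (5.14 to 14.6). The first peak was above the list's median of 9.56 and the second below it. The first peak ended 672 bp short of the listed TSS. No peak of CHIR or RPMI lay within 5411 kb of either.

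**Figure D2:**
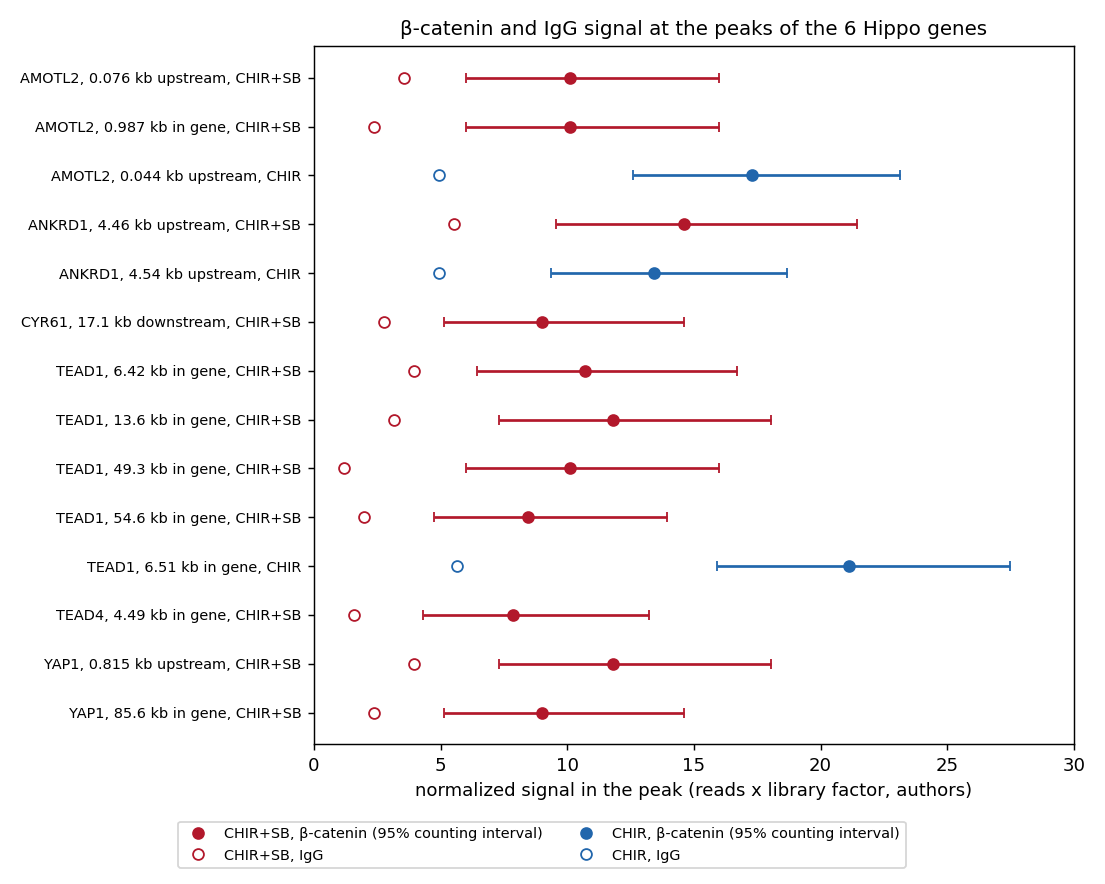
Normalized β-catenin signal (filled points, with exact 95% counting intervals) and IgG signal (open points) at each of the 14 peaks, CHIR+SB in red and CHIR in blue, with the distance from the TSS in each label. The highest point is the CHIR peak of TEAD1 at 21.1, and the CHIR+SB points lie between 7.88 and 14.6.

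β-catenin signal over IgG was above 1, with its interval, at each of the 11 CHIR+SB and 3 CHIR peaks. The authors' lists hold no peak below 2.22 in CHIR+SB or 2.27 in CHIR, so values above 1 are a property of the lists. The medians were 3.75 over the CHIR+SB peaks of these genes and 3.50 over the CHIR peaks, against 4.29 and 4.66 over all peaks of those lists. At the sites in both lists, signal over IgG was 2.86 in CHIR+SB (1.22 to 7.22) and 3.50 in CHIR (1.57 to 9.19) at AMOTL2. At ANKRD1 it was 2.65 in CHIR+SB (1.34 to 5.50) and 2.72 in CHIR (1.19 to 7.26). At TEAD1 it was 2.71 in CHIR+SB (1.20 to 6.54) and 3.74 in CHIR (1.77 to 9.10). The value was lower in CHIR+SB at all 3 sites, with wide intervals set by 7 to 14 IgG reads, and the difference over IgG between the conditions was not tested.

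**Figure D3:**
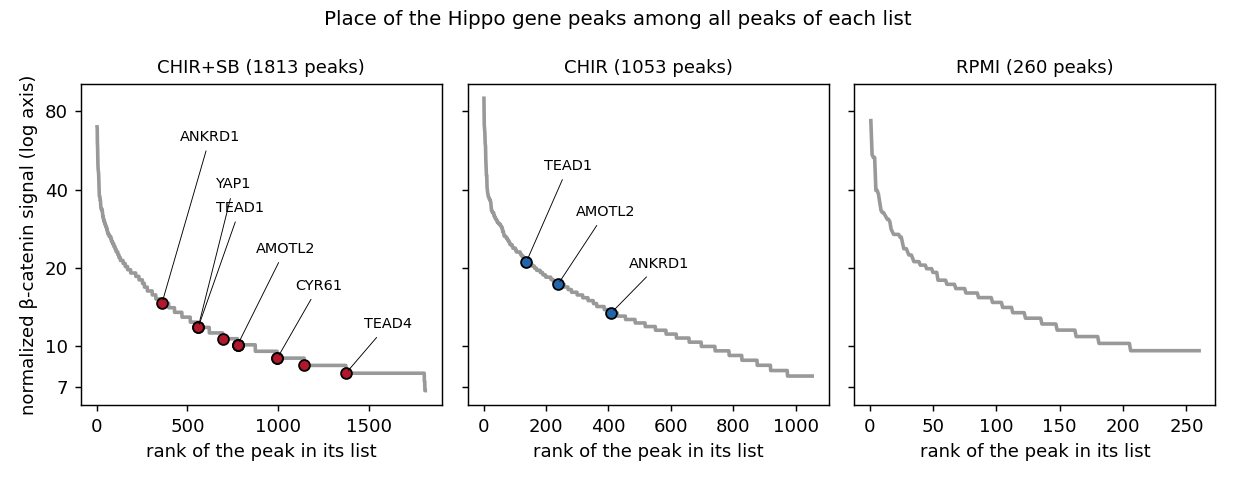
Normalized β-catenin signal on a log axis against rank for all peaks of CHIR+SB, CHIR and RPMI (grey lines), with the peaks of the 6 genes as points, labelled at the highest peak of each gene. TEAD1 ranks 137th, AMOTL2 238th and ANKRD1 409th in CHIR, whereas the CHIR+SB points run from rank 359 to rank 1375.

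Within their lists, the 3 CHIR peaks stood in the upper part. Of all CHIR peaks, 86.2% had a lower signal than TEAD1, 75.5% than AMOTL2 and 59.4% than ANKRD1. In CHIR+SB, 7 of the 11 peaks lay above the list's median signal. The values there ran from 78.2% of peaks lower than ANKRD1 to 0.331% lower than TEAD4. Within 1 kb of the listed TSS lay 3 of the 11 CHIR+SB peaks, 2 at AMOTL2 and 1 at YAP1. In CHIR it was 1 of 3, at AMOTL2. Over all peaks the share within 1 kb was 14.5% in CHIR+SB and 26.6% in CHIR.

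Since the factors differed between libraries, each signal was also expressed as reads by the factors of the other libraries. At equal signal, the CHIR peaks of TEAD1, AMOTL2 and ANKRD1 would have had 33.0, 27.0 and 21.0 reads in RPMI, where the lowest listed peak had 15. The nearest RPMI peaks were 781.8 kb from the TEAD1 peak, 1151 kb from the ANKRD1 peak and 3800 kb from the AMOTL2 peak. At equal signal, the CHIR+SB peaks without a CHIR partner would have had 20.5 reads (TEAD4) to 30.8 reads in CHIR. The highest of these were the first YAP1 peak and the TEAD1 peak at 13.6 kb. The lowest peak listed in CHIR had 20 reads. The peaks of TEAD4, CYR61, YAP1 at 85.6 kb and TEAD1 at 54.6 kb would have had 12.3 to 14.0 reads in RPMI. The other 7 CHIR+SB peaks would have had 15.8 reads (both AMOTL2 peaks and TEAD1 at 49.3 kb) to 22.8 reads (ANKRD1) there. At equal signal, the 3 CHIR sites and these 7 CHIR+SB sites would thus have stood above the lowest read count of the RPMI list, and the other 4 CHIR+SB sites below it. These are point values. The counting intervals of all 7 CHIR+SB signals and of the ANKRD1 signal in CHIR reached below 9.61, the lowest RPMI signal. The lowest listed count need not be the threshold of calling. The reads at unlisted sites were not analysed here.

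Across the 642 one-to-one peaks, the ratio of signals, CHIR+SB over CHIR, went with the ratio of widths. Spearman's rho was 0.869 over these 642 peaks, which all come from the same pair of libraries and whose counts grow with the width counted. The width ratio, CHIR+SB over CHIR, was 0.402 at TEAD1, 0.407 at AMOTL2 and 1.07 at ANKRD1, and its median over all pairs was 1.02. Among the 65 pairs with a width ratio under 0.5, a limit chosen after these widths were seen, the median ratio of signals was 0.651, and 64 of them had a ratio below 1. TEAD1, with 0.506, and AMOTL2, with 0.586, were below that median. Of the 65, 6 had a ratio at or below that of TEAD1, itself included. The median width ratio of the 65 was 0.383, lower than their median ratio of signals. At TEAD1 and AMOTL2 the width ratio was likewise the lower one. Over all 642 pairs the median ratio was 1.00, with 9 pairs at or below TEAD1 and 23 at or below AMOTL2, each itself included. The part of the width in the TEAD1 and AMOTL2 ratios was not tested.

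**Figure D4:**
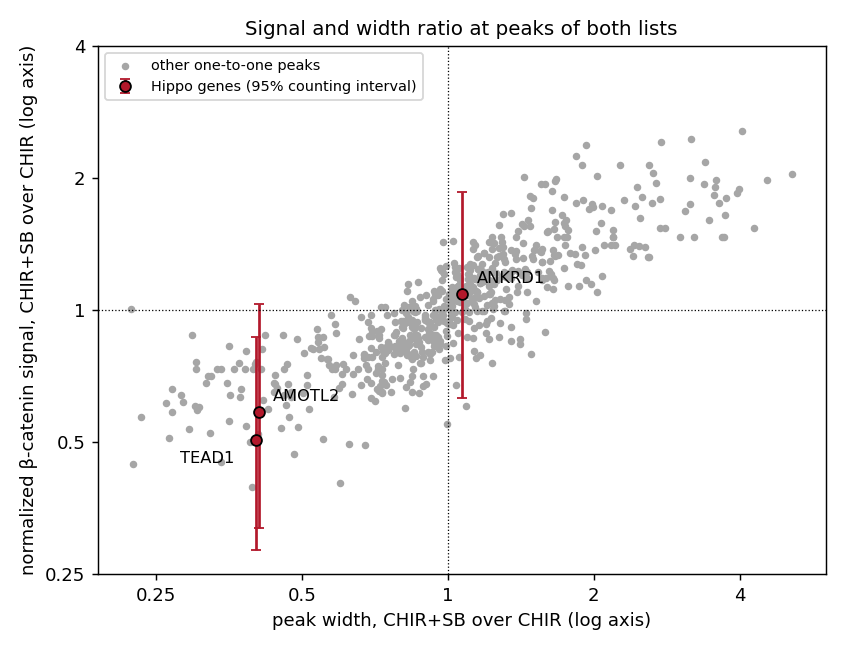
Ratio of normalized β-catenin signal, CHIR+SB over CHIR, against the ratio of peak widths at 642 one-to-one peaks, both on log axes, with TEAD1, AMOTL2 and ANKRD1 in red and their 95% counting intervals. Signal and width ratios run together, and TEAD1 and AMOTL2 lie among the pairs whose CHIR+SB peak is narrower.

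Beyond these 6 genes, 43 other genes of the pathway were looked up. In CHIR+SB 8 of them had an assigned peak at any distance (18.6%), in CHIR 5 (11.6%) and in RPMI 0, beside the 6.25%, 3.80% and 1.14% of all protein-coding genes. The 43 genes were chosen with earlier results of these data known, so their shares are a description only. The shares were not tested, and gene length was not accounted for. Within 50 kb of the TSS, 3 of the 43 genes had a peak in CHIR+SB (FAT4, FOXF2 and MOB1B), or 6.98% beside 3.73% of all protein-coding genes, and 2 in CHIR (MOB1B and VGLL4), or 4.65% beside 2.69%. None had one in RPMI, where 0.888% of all protein-coding genes did. Genes with a peak in both lists were MOB1B, MYOF, PTPN14 and RBMS3.

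Among the 18 kinases, adaptors and upstream regulators, 4 had a peak in CHIR+SB and 2 in CHIR, beside 6.25% and 3.80% of all protein-coding genes. MOB1B, an activator of the LATS kinases, had a promoter peak with 15 reads in CHIR+SB and 27 in CHIR, a ratio of signals of 0.814 (0.402 to 1.59). PTPN14, a phosphatase that binds YAP1, had a peak 146.9 kb from the TSS within the gene with 25 reads in CHIR+SB, overlapping one with 31 reads in CHIR, a ratio of 1.18 (0.669 to 2.07). Neither interval excluded 1. FAT4, an atypical cadherin, and AMOTL1, a relative of AMOTL2, had peaks in CHIR+SB alone, with 26 and 14 reads. They lay within the genes, 41.4 kb (FAT4) and 74.1 kb (AMOTL1) from the TSS. The AMOTL1 peak was at the lower edge of the list. No peak in any list was assigned to the central kinase genes STK3, STK4, LATS1 and LATS2. Most protein-coding genes had none either, so this absence does not set these kinase genes apart.

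Of the 7 co-activator, TEAD and cofactor genes, VGLL4 alone had a peak, in CHIR, 11.5 kb upstream with 24 β-catenin reads and 1 IgG read. VGLL4 competes with YAP1 for TEAD factors. WWTR1, which encodes the YAP1 relative TAZ, TEAD2 and TEAD3 had none in any list, like most protein-coding genes. Among the 18 targets, 4 had a peak in CHIR+SB (FOXF2, IGFBP3, MYOF and RBMS3) and 2 in CHIR (MYOF and RBMS3). The shares of all protein-coding genes were 6.25% and 3.80%. Of these targets, FOXF2 alone had a peak within 50 kb of the TSS, at 6.00 kb (14 reads). For IGFBP3, the distance from the TSS was 199.1 kb at one site (15 reads) and 571.5 kb at the other (14 reads). The FOXF2 site and the farther IGFBP3 site stood at the lower edge of the CHIR+SB list.

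The highest peak of any of the 43 genes was assigned to MYOF, which encodes the membrane protein myoferlin. It lay 201.3 kb from the TSS, beyond the gene's end, with 47 β-catenin and 14 IgG reads in CHIR+SB and 58 and 4 in CHIR, a ratio of signals of 1.19 (0.790 to 1.77). RBMS3, an RNA-binding protein gene whose listed span was 710.0 kb, had 3 peaks in CHIR+SB and 4 in CHIR. At its peak 587.5 kb from the TSS, the signal was 20.8 in CHIR+SB (37 reads) and 10.4 in CHIR (27 reads), a ratio of 2.01 (1.19 to 3.43). The width ratio there was 1.44. The other RBMS3 pairs had ratios of 0.732 (0.356 to 1.44; 14 reads in CHIR+SB and 28 in CHIR) and 1.46 (0.748 to 2.87; 20 reads in each). An interval above 1 was found at 6.70% of the 642 pairs, and RBMS3 was the one gene of the 43 with such a pair.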

How the data were processed

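β-catenin ChIP-seq peak lists of 3 conditions in SA121 cells were used, 1 library each. The submitters' processing notes name Bowtie, with no version or role, and hg19 and mm9. The lists were read as hg19, and coordinates are printed as deposited. Which peak caller and thresholds were used is not given in the sources used here. Per the file headers, the authors deposited whole read counts of the β-catenin and IgG libraries in each peak and both in normalized form. Each normalized signal was the count times 1 factor per library, and what the factor scales to is not stated. Gene assignments and distances are the authors'. Decimal commas were read as points.

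Peaks were matched by gene name, and pathway genes by accession or symbol to RefSeq (GRCh38.p14, names and promoter sequences). All 43 pathway genes matched. Overlap meant at least 1 bp, and one-to-one pairs met no second peak. Ratios carry exact conditional binomial (Clopper-Pearson) 95% intervals and single signals exact Poisson ones. The ratio intervals were checked on simulated Poisson counts, which the intervals assume, so the check covers the calculation only. Differences in peak width and the calling of peaks were not simulated. Reads carry no molecular identifiers here, so intervals cover counting error only. The named genes are the 6 genes and every pathway gene with a peak. Of the 34 pathway genes without one, STK3, STK4, LATS1, LATS2, WWTR1, TEAD2 and TEAD3 are named besides. The genes, the pathway list and the alternatives were chosen with earlier results of these data known. Python 3.11.15, pandas 2.3.3 and SciPy 1.17.1 were used. Inhibitor doses are not printed because the labels' unit is in doubt.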

Additional observations from a re-analysis of the deposited data

How the results depend on the processing

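Each condition had 1 β-catenin library, and a called peak in one list and not in another has no replicate check. Of 35 alternatives to 10 results in CHIR+SB and CHIR, 27 left the value within 1.5 times (counts) or within its counting interval (ratios). With peaks at or above the common minimum signal, CHIR+SB had 7 peaks at 4 of the 6 genes in place of 11 at all 6. Of the pathway genes, 4 had a peak there in place of 8. The share of all protein-coding genes at this cut was not taken. Among the 260 highest peaks of each list, an alternative chosen after seeing the data, CHIR+SB had 0 peaks at 0 of the 6 genes. Within 50 kb of the TSS, 3 pathway genes had a peak in CHIR+SB in place of 8, and 2 in CHIR in place of 5, beside 3.73% and 2.69% of all protein-coding genes. Per kb of peak width, the ratio of CHIR+SB to CHIR signal was 1.26 at TEAD1 in place of 0.506, and 1.44 at AMOTL2 in place of 0.586, because the CHIR+SB peaks were narrower. With IgG signal subtracted or with another scaling, these ratios stayed below 1. The alternatives remove peaks and so could not change the counts of 0 in RPMI. No CHIR peak of the 6 genes overlapped an RPMI peak, so no ratio of CHIR to RPMI could be taken. No paired analysis was possible because each group had 1 sample.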
